A study of Mus musculus with 6 samples.

Results

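Rn45s is the precursor of the cytoplasmic ribosomal RNAs, and its JARID2 contact sites are described here as the authors listed them in E14 mouse embryonic stem cells. Members are the sites of both lists that lie within chr17:39979900-39985800 (mm9, plus strand), chosen by position alone. They number 106 of 23380 sites in the list for untreated cells and 91 of 5348 in the list for cells given retinoic acid, 197 of 28728 in all. Both groups were grown in 15% serum with LIF, pulsed with 4-thiouridine at 500 µM for 2 h and irradiated with 400 mJ/cm2 at 312 nm, and JARID2 was then immunoprecipitated (PAR-CLIP, which maps where a protein was crosslinked to RNA). The treated group had received 2 µM retinoic acid for 24 h, an agent that starts stem cells on differentiation, and the untreated group had not. All libraries come from 1 cell line. The 3 libraries of a condition were deposited as 1 joint list, which leaves n = 1 for each condition. No list gives a spread between replicates, and no difference between the conditions could be tested. The mm9 position of the gene was taken as given, with its start at 39979942, and was not checked against an annotation of that build. No gene names come with the lists, so markers of stem cells could not be checked in them.

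RNA polymerase I transcribes ribosomal DNA in the nucleolus as 1 long precursor. Its 5′ external spacer is cut away and degraded while small nucleolar ribonucleoproteins fold and trim the RNA, and 18S, which follows the spacer, becomes the RNA of the small ribosomal subunit. Contacts in the spacer are therefore contacts with unprocessed or freshly cut precursor, whereas 18S sequence is also present in mature cytoplasmic ribosomes. Ribosomal RNA is the most abundant RNA of a cell and a common background in crosslinking experiments. JARID2 is a subunit of the Polycomb complex PRC2, which methylates histone H3. Ribosomal DNA is repeated in many copies, and the build holds a partial copy on chromosome 17 that ends close to the end of 18S. The large-subunit RNAs lie outside it. The sources used here do not say how reads from the other copies were placed.

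Below, bases are counted from 1 at the gene start. The spacer is bases 1 to 4000, and 18S is the rest of the interval, 1.859 kb. A site belongs where its midpoint lies. Scores are whole numbers as the authors deposited them. What they count and whether they were scaled between lists is not given, and no level of the RNA itself is part of the lists, so the amount of precursor and the contact per molecule cannot be told apart. The summed score of the untreated list was 1.40 times that of the treated list (0.48 on the log2 scale). Ratios of deposited scores are given as they are, treated over untreated, and relative to the list sums where that matters.

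Rn45s held the largest summed score of any region in both lists. Its sites made up 0.453% of the untreated list (95% exact binomial interval 0.371 to 0.548, counting error only) but 19.5% of its score, and 1.70% of the treated list (1.37 to 2.09) but 23.3% of its score. Summed scores were 1286372 untreated and 1097010 treated. Among 9482 regions in which neighbouring sites of either list on the same strand lie no more than 10 kb apart, Rn45s ranked 1 by score in each list, and ranked 8 by number of sites untreated and 3 treated. Of the sites scored at least 10000, it held 39 of 127 untreated (30.7%) and 20 of 87 treated (23.0%). Its lowest scores, 154 untreated and 126 treated, were far above the list medians of 17 and 23.

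Sites ran over nearly the whole interval and on the sense strand only. The first began at base 27 in both lists, at 39979968, and the last ended at base 5835 untreated and 5834 treated. No antisense site lay in the interval in either list, and the nearest other site on chromosome 17 was 332 kb away in the untreated list and 1073 kb in the treated list. Sites covered 2360 bases untreated and 2393 treated, about 40.3% and 40.8% of the interval. They had median lengths of 17 and 23 bases, against 12 in each whole list. In the authors' site names, all 106 untreated sites share 1 prefix before the dot. The treated sites have 2 prefixes, on 67 and 24 sites, with the break between bases 4417 and 4442. Untreated sites run on either side of these bases under 1 prefix. What the prefix stands for is not given.

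**Figure D1:**
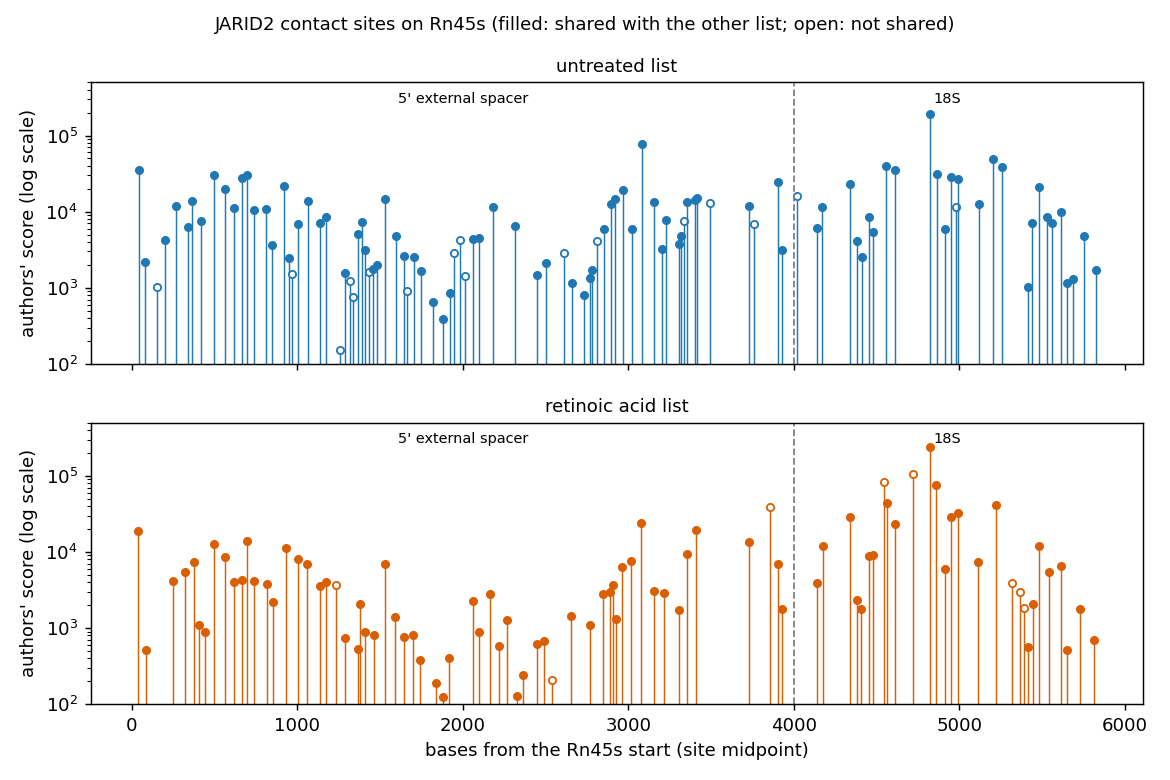
Each stem is 1 deposited site, placed by its midpoint in bases from the Rn45s start (x axis) with its score on a log scale (y axis), for the untreated list (top, 106 sites) and the retinoic acid list (bottom, 91 sites). The dashed line at base 4000 divides spacer and 18S. Filled points share a base with a site of the other list, and the open treated points at bases 4541 to 4548, 4714 to 4722 and 3852 to 3864 are among its highest.

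The balance of score between spacer and 18S differed between the lists, while the balance of sites differed little. The spacer held 77 of 106 untreated sites (72.6%, interval 63.1 to 80.9) and 62 of 91 treated sites (68.1%, 57.5 to 77.5), and 18S held 29 in each. These intervals cover counting error only, and sites of 1 transcript are not replicates, so they do not compare the conditions. The spacer carried 52.4% of the untreated Rn45s score and 27.7% of the treated one. Its summed score was 674192 untreated and 303566 treated, 2.22 times lower with treatment, over 1719 and 1576 covered bases. The summed score of 18S was 612180 untreated and 793444 treated, 1.30 times higher, over 641 and 817 covered bases. As shares of all score in the list, the spacer had 10.2% untreated and 6.45% treated, and 18S had 9.30% and 16.9%.

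Within each list, 18S sites scored higher than spacer sites. Untreated medians were 4842 in the spacer (interquartile range 2006 to 11970) and 9927 in 18S (5366 to 26724). Treated medians were 2777 in the spacer (823 to 6735) and 7395 in 18S (2314 to 29146). The ranges overlapped widely in both lists. Mean scores were 8756 and 21110 untreated and 4896 and 27360 treated, and the 5 highest-scored sites carried 30.0% of the spacer score and 57.9% of the 18S score untreated, and 37.8% and 69.3% treated. The 18S medians thus went from 9927 to 7395 while the 18S mean was higher in the treated list. Sites were spaced alike in 18S, at 15.6 per kb in both lists, and in the spacer stood at 19.3 per kb untreated and 15.5 treated.

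Score was uneven along the precursor. In steps of 500 bases, the first 1000 bases of the spacer carried 8.83% and 10.9% of the untreated Rn45s score. Bases 3001 to 3500 carried 14.03%, bases 4501 to 5000, within 18S, carried 28.8%, and the next step carried 10.04%. The stretch from base 1501 to 2500 was the lowest part of the spacer, at 2.82% and 2.32%. In the treated list the same shares were 4.62%, 4.74%, 6.20%, 58.4% and 6.53% for the high steps and 1.01% and 0.863% for the low ones. In the treated list, bases 3501 to 4000 and 4001 to 4500, at 5.59% and 6.07%, also stood above each of the first 2 steps, whereas in the untreated list, at 3.62% and 6.02%, they stood below each of them. Bases 4501 to 5000 were the highest step in both lists and held more than the rest of Rn45s together in the treated list.

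**Figure D2:**
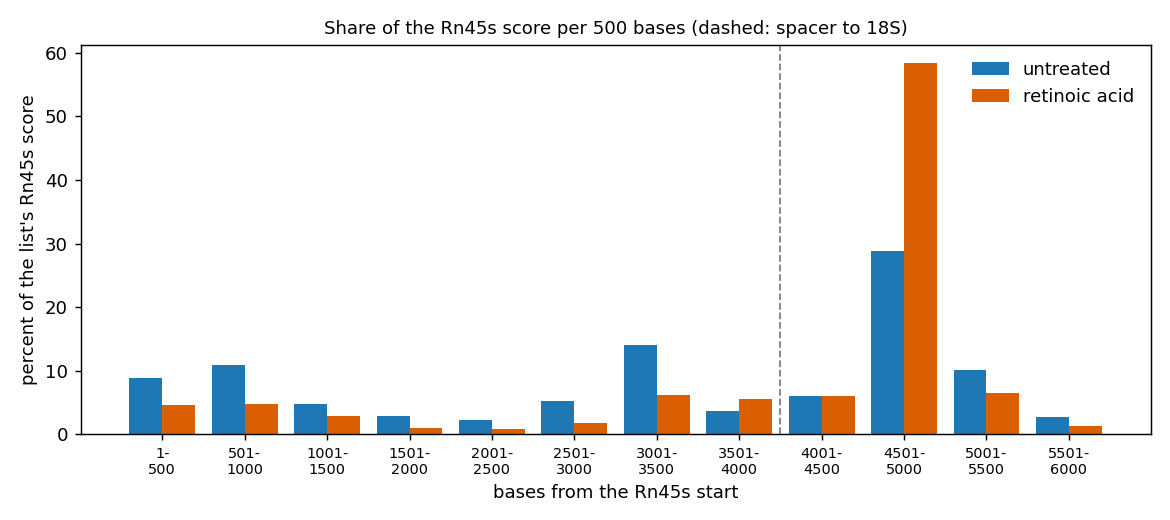
Bars give the percent of each list's summed Rn45s score per 500 bases from the gene start (x axis) for the untreated (blue) and the retinoic acid list (orange). Bases 4501 to 5000 carried 28.8% untreated and 58.4% treated, and each of the first 7 steps, bases 1 to 3500, had a lower share treated than untreated.

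The highest-scored Rn45s site was the same in both lists. It lay in 18S at bases 4814 to 4834 (chromosome 17, 39984755 to 39984775) in the untreated list, with a score of 191189, the third highest of that list. In the treated list it lay at bases 4813 to 4836, with a score of 241325, the second highest. It alone carried 14.9% and 22.0% of the Rn45s score. The next 18S sites of the untreated list were at bases 5167 to 5242 with 48563, 4555 to 4559 with 40066, 5247 to 5270 with 39045 and 4602 to 4618 with 35395. All of these had a treated partner. A single treated site at bases 5168 to 5275, with 40928, spanned both untreated sites beyond base 5000. The sites at 4551 to 4575 and 4602 to 4620 had 43519 and 22983.

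The next 18S sites of the treated list all lay in the same 500-base step as that peak. They were at bases 4714 to 4722 with 104858 and 4541 to 4548 with 83791, neither overlapping an untreated site, and then bases 4844 to 4878 with 76257. The last overlapped an untreated site at 4857 to 4873 that scored 31448. Sites at 4541 to 4548 and 4714 to 4722 ranked 7 and 6 in the whole treated list. The nearest untreated sites were 7 bases away, at 4555 to 4559, and 92 bases away.

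In the spacer the highest untreated site was at bases 3048 to 3115 (39982989 to 39983056), with 78037, the tenth of the list. Its treated partner at 3044 to 3114 scored 24181. The first site of the precursor, at bases 27 to 56, had 35647, and its partner at 27 to 54 had 18627. The sites at 479 to 515 and 688 to 703 had 30664 and 30076, against 12567 and 13778 for their partners. The untreated site at 660 to 671 had 27797 and its partner 4340. All 5 were lower in the treated list, but they were chosen for high untreated scores, which favours lower partner scores. The highest treated spacer site, at bases 3852 to 3864 (39983793 to 39983805) with 38945, overlapped no untreated site. It lay close to the 18S end of the spacer, between untreated sites at 3756 to 3759 and 3898 to 3911, which scored 6934 and 24626. The treated site at 3394 to 3419, with 19168, overlapped 2 untreated sites, of 14420 and 14981, which sum to 29401.

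Most Rn45s sites recurred between the lists, meaning that they shared at least 1 base with a site of the other list. Of the untreated sites, 89 of 106 recurred (84.0%, interval 75.6 to 90.4), and of the treated sites 83 of 91 (91.2%, 83.4 to 96.1). Here too the intervals cover counting error only, since sites of 1 transcript are not replicates and 1 long site can overlap several. Outside Rn45s, 5.93% of untreated and 26.2% of treated sites recurred. Outside Rn45s, too, sites with high scores were shared more: at a score of at least 1000, 63.1% of untreated and 79.2% of treated sites there recurred. At that minimum 85 of 99 untreated Rn45s sites (85.9%) and 62 of 69 treated ones (89.9%) recurred. By stretch, 62 of 77 untreated spacer sites (80.5%) and 27 of 29 in 18S (93.1%) recurred, and 59 of 62 treated spacer sites (95.2%) and 24 of 29 in 18S (82.8%). Sites here also stand close together, and the part of that closeness in the overlap was not tested. Recurring sites carried 93.9% of the untreated Rn45s score and 78.1% of the treated one.

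Boundaries of recurring sites were close but seldom identical. Among the 83 treated sites paired with the untreated site they shared most bases with, the starts differed by a median of 3 bases and so did the ends. Starts lay within 5 bases of each other in 54 pairs and ends in 59. Both ends were identical in 5 pairs. In all, 1827 bases were covered in both lists, 77.4% of the untreated and 76.3% of the treated covered bases. Some stretches were without a site in both lists. The longest was 229 bases in the spacer, from base 3495 to 3723, followed by 133 bases in 18S from 4197 to 4329 and 111 bases from 4022 to 4132, just inside 18S.

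Sites listed in 1 condition only were few, and they were unlike in the 2 lists. The 17 such untreated sites lay mostly in the spacer, 15 against 2 in 18S, and had a median score of 2848. The highest were at bases 4017 to 4021, at the very beginning of 18S, with 16247, at 3490 to 3494 with 13121 and at 4976 to 4981 with 11499. All 3 are short sites of 5 or 6 bases, and the last lay 4 bases from a treated site at 4985 to 4999 that scored 32487. The 8 treated-only sites, 3 in the spacer and 5 in 18S, had a median score of 3786. Just 3 of them, at 4714 to 4722, 4541 to 4548 and 3852 to 3864, held most of the treated-only score. They left 21.9% of the treated Rn45s score on treated-only sites, against 6.08% of the untreated score on untreated-only sites.

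Scores at recurring sites were lower in the treated list over most of the spacer. Over 59 spacer pairs the median log2 score ratio was -1.46, a 2.75-fold lower score (interquartile range -2.03 to -1.03), and 54 pairs were lower and 5 higher with treatment. Over 24 pairs in 18S the median was -0.55 (-0.82 to 0.08), with 14 lower and 10 higher. Relative to the list sums the medians were -0.97 and -0.07, with 53 of 59 spacer pairs and 13 of 24 18S pairs lower. The spacer pairs were thus lower on both scales, while the 18S median was close to 0 on the second.

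A treated score of at most 0.5 times the untreated one was found in 44 of 59 spacer pairs (74.6%) and 4 of 24 18S pairs (16.7%). Over all 1379 recurring pairs outside Rn45s, with a median ratio of -0.35, the share was 25.3%. Over the 284 of them with a site scored at least 1000, which are closer to Rn45s in score and had a median of -0.68, it was 39.8%. The share in the spacer stood above both and that of 18S as a whole below both. The 2 parts of 18S differed, with 0 of 14 pairs in bases 4001 to 5000 and 4 of 10 (40%) beyond base 5000. The second part was thus near the share of the high-scored pairs outside Rn45s. Relative to the list sums, such a score was found in 29 spacer pairs (49.2%) and 1 18S pair (4.17%), against 14.2% of all and 27.8% of the high-scored pairs outside Rn45s. A treated score of at least double the untreated one was found in 0 spacer pairs and 1 18S pair, against 11.5% of all pairs outside Rn45s and 8.1% of the high-scored ones. Relative to the list sums, it was found in 0 spacer pairs and 2 of 24 18S pairs. Outside Rn45s, it was then found in 310 of 1379 pairs and in 40 of the 284 high-scored ones.

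**Figure D3:**
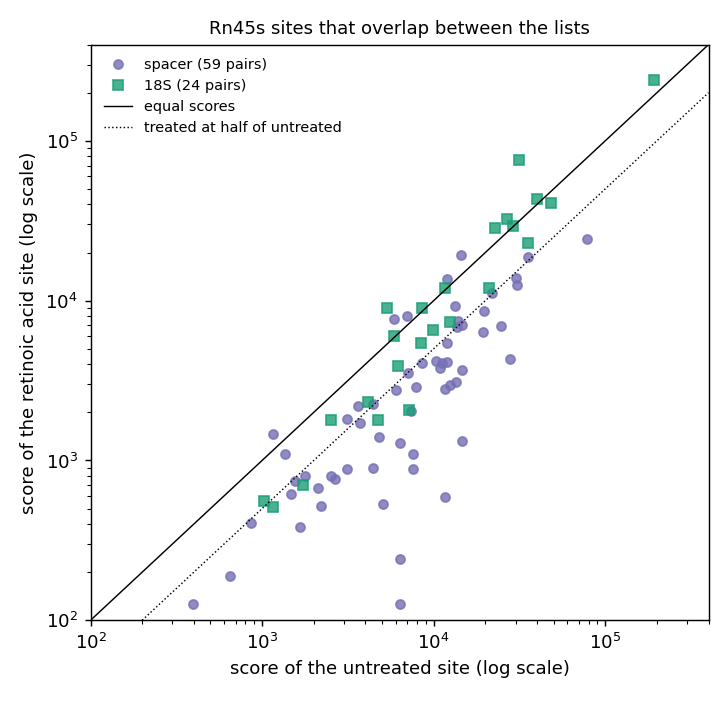
Each point is 1 treated Rn45s site and the untreated site it shares most bases with, by untreated score (x axis) and treated score (y axis), both on log scales, for the spacer (circles, 59 pairs) and 18S (squares, 24 pairs). Points on the solid line have equal scores, and 44 spacer and 4 18S pairs lie on or below the dotted line, where the treated score is at most 0.5 times the untreated one.

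The ratio varied with position. The median log2 ratio was -1.30 over 16 pairs in bases 1 to 1000, -1.64 over 17 pairs in the next 1000 bases and -2.03 over 16 pairs in bases 2001 to 3000. In bases 3001 to 4000 it was -0.95 over 10 pairs. In bases 4001 to 5000, the first part of 18S, it was 0.06 over 14 pairs, of which 10 were higher with treatment, and in the rest of 18S it was -0.85 over 10 pairs, of which 0 were higher. Among the 18S pairs, the higher deposited scores of the treated list thus lay in the first part and not in the second. The second part also held treated-only sites, at 5313 to 5324, 5363 to 5370 and 5382 to 5404, with scores of 3938, 2957 and 1847. Relative to the list sums the first part had a median of 0.55 and the second -0.36, with 10 of 14 and 1 of 10 pairs higher.

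Single sites, chosen after their values were seen, show the same change along 18S, but the first part was mixed. Of the 14 pairs in bases 4001 to 5000, 4 were lower with treatment, among them 4602 to 4620 with 35395 untreated and 22983 treated. Some of the 10 higher ones hardly differed, such as 4932 to 4968 with 28901 and 29146. Clearer rises were at bases 4330 to 4347, with 22885 and 28460, and at the peak around base 4814, with 191189 and 241325. At bases 4985 to 4999 the scores were 26724 and 32487. Beyond base 5000 the treated score was the lower one in each pair. The site at 5103 to 5128 had 12462 and 7395, and that at 5461 to 5497 had 20950 and 11924. At 5427 to 5450 the scores were 7147 and 2077.

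The largest ratio was at bases 4844 to 4878, beside the peak, with a log2 ratio of 1.28, followed by 0.75 at 4471 to 4489 (5366 untreated, 9053 treated) and 0.41 at 3394 to 3419, where the treated site was paired with 1 of the 2 untreated sites it overlaps. With both added up, the last ratio was -0.62. The lowest ratios, -5.65 at 2323 to 2334 and -4.73 at 2361 to 2371, belong to short treated sites of 127 and 241 that lie within 1 long untreated site of 6395 at 2265 to 2372. The next, -4.30 at 2209 to 2231, overlaps a long untreated site at 2139 to 2227 by 19 of its 23 bases. These stretches are better read after adding up all sites that overlap: from 2263 to 2372 the sums were 6395 and 1646, a log2 ratio of -1.96. Added up in this way, 49 of 53 groups of overlapping spacer sites and 13 of 23 in 18S had a lower treated sum. The lowest was then bases 1356 to 1373, with 5080 and 533 and a log2 ratio of -3.25. The 4 spacer groups with a higher treated sum, at bases 993 to 1011, 2641 to 2668, 3000 to 3036 and 3724 to 3737, had log2 ratios of 0.19 to 0.39.

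**Figure D4:**
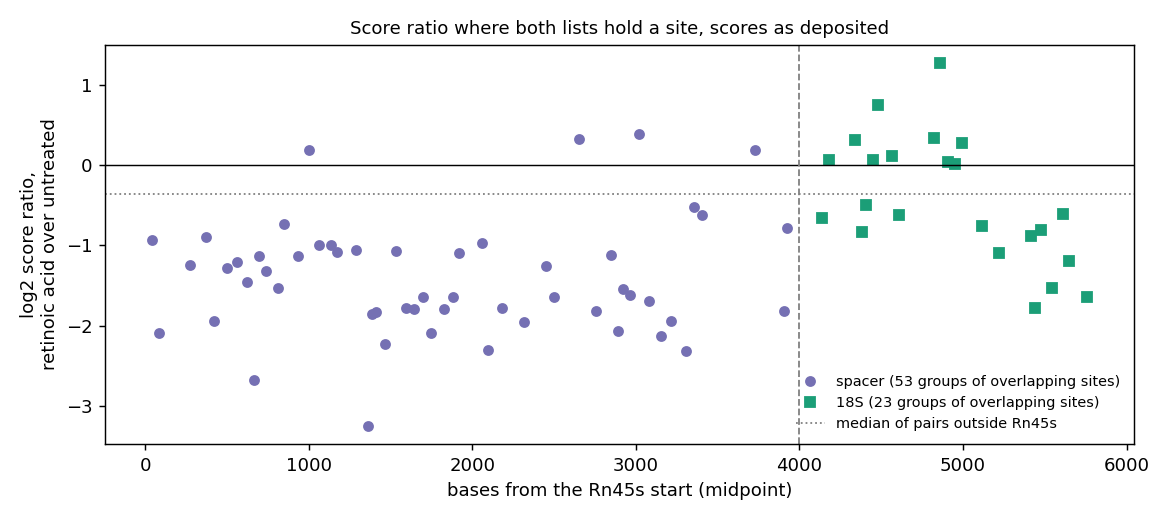
Each point is a group of overlapping sites of both lists, by its midpoint in bases from the Rn45s start (x axis) and the log2 ratio of summed deposited scores, treated over untreated (y axis); circles are 53 spacer groups and squares 23 groups in 18S. Spacer groups lie mostly below -0.5, 18S groups up to base 5000 lie around 0, and those beyond base 5000 lie below 0; the dotted line is the median of -0.35 over pairs outside Rn45s.

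The higher 18S sum of the treated list rested on few sites. Over recurring sites alone the 18S sums were 584434 and 596053, a log2 ratio of 0.03, against 0.37 with all sites. Over the recurring sites of bases 4501 to 5000 the sums were 359564 and 451725, a log2 ratio of 0.33, against 0.79 with all. The rest of 18S had sums of 241117 and 153070, a ratio of -0.66. The log2 ratio of the spacer sums was -1.15 with all sites and -1.26 over recurring sites. Relative to the list sums these spacer ratios were -0.67 and -0.77, and those of 18S were 0.86 and 0.51.

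The order of scores along the transcript was alike in the lists. Over the 83 pairs Pearson's r of log scores was 0.84 and Spearman's rho 0.83. In 18S they were 0.96 and 0.94 over 24 pairs, and in the spacer 0.79 and 0.80 over 59. The pairs share a transcript, and an untreated site can serve in more than 1 pair, so these values are descriptions. Outside Rn45s, r was 0.91 over 1379 pairs and 0.71 over the 284 high-scored ones. The lowest agreement along Rn45s was in bases 2001 to 3000, at r = 0.34 over 16 pairs, where the long untreated sites named above lie.

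The mitochondrial ribosomal RNAs, which are made by another polymerase inside the organelle and have no such spacer, were the other ribosomal RNAs that could be placed. mt-Rnr1, the small-subunit RNA, held 21 untreated and 22 treated sites with summed scores of 56885 and 40644, a log2 ratio of -0.49. mt-Rnr2, the large-subunit RNA, held 20 and 23 sites with 50103 and 27619, a ratio of -0.86. In both, the deposited scores summed to less in the treated list. As a share of the list score, mt-Rnr1 had 0.864% in both lists, and mt-Rnr2 had 0.761% untreated and 0.587% treated. Relative to the list sums, 8 of 16 mt-Rnr1 pairs were lower and 8 higher, with a median log2 ratio of -0.015. Of 14 mt-Rnr2 pairs, 11 were lower and 3 higher on that scale, with a median of -0.42. Their density, 22.0 and 23.0 sites per kb in mt-Rnr1 and 12.6 and 14.5 in mt-Rnr2, was of the order of that on Rn45s.

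The 3 other regions with the largest summed scores were shorter than Rn45s. The next by summed score over both lists was chr13:44964954-44965368 (minus strand). With 6 sites untreated and 4 treated, it had a single site that carried 98.5% and 99.5% of its score of 487790 and 450613. At chr6:3150785-3151645 (plus strand), 17 and 18 sites summed to 296022 and 262676. At chr1:56838980-56839230 (minus strand), 2 and 6 sites summed to 124705 and 275949. Rn45s thus had the most sites of the 4, and its highest site carried 14.9% and 22.0% of its sum. The share of list score was higher in the treated list in all 4, by 0.37, 0.31 and 1.63 on the log2 scale for these 3 regions in the order given and by 0.25 for Rn45s, the smallest of the 4.

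Of the 7 other regions with at least 20 sites in each list, 0 had a higher ratio of score shares than Rn45s. The minimum of 20 sites leaves out the 3 regions just named, whose ratios were all higher than that of Rn45s. The closest were chr2:22442836-22445844 (minus strand) at -0.17, the plus strand of the mitochondrial chromosome from 10 to 15390 at -0.21, and chr11:50192483-50199916 (plus strand) at -0.38. Their median over the 7 was -0.52. Without the highest site of each list the share of Rn45s was higher by 0.13, and over its recurring sites it was -0.01, both relative to the full list sums.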

How the data were processed

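Per condition, the authors deposited a single list of contact sites that covers libraries b1 to b3, with chromosome, start, end, site name, score and strand. The unit is the authors' score as deposited, a whole number that the sources used here do not explain. The submitters' processing notes name Bowtie and mm9. The site caller, filters and read depth are not given there, so the number of sites is the depth behind each interval. Coordinates are written from 1.

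Sites were taken by strand and position within the interval named in the report. The spacer was set to 4000 bases from the gene start. Recurrence needed 1 shared base on the same strand. Each treated site was paired with the untreated site it shared most bases with, and log2 ratios are treated over untreated. Intervals are exact 95% binomial intervals. Sites of 1 transcript are not replicates, so no test was run. The mitochondrial genes come from GENCODE M21, on the assumption that the mitochondrial record is the same in both builds. No sequence or annotation of mm9 was used, so no sequence is printed and Rn7sk, Rmrp, Rpph1 and Rnu3a were not placed. The overlap code was tested on simulated data. The members and lists were chosen with earlier results of these data known.

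The text names, per list, the 5 highest-scored sites of the spacer and of 18S, the 3 highest-scored without an overlapping site in the other list, the first and last site, the 3 highest and 3 lowest ratios, the 3 other regions with the largest summed score and the 3 with at least 20 sites per list closest in ratio. Other single sites, gaps and groups of overlapping sites in the text were chosen after their values were seen. Alternatives covered the overlap rule, the boundary, a score minimum of 1000, joining of sites, scaling and the highest-scored site. Software was Python 3.11.15, scipy 1.17.1, numpy 2.4.6 and matplotlib 3.10.9.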

Additional observations from a re-analysis of the deposited data

How the results depend on the processing

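No paired analysis was possible because each list pools its 3 libraries, and for the same reason no library could be left out. Joined across up to 50 bases, the sites formed 18 stretches in each list in place of 106 and 91. With at least 50% of both sites shared, 57 sites of each list recurred, and with identical start and end 5 did. Where a site within 10 bases was enough, 95 of 106 untreated and 86 of 91 treated sites recurred, so some sites of 1 list only lay beside a site of the other. The spacer's share of the Rn45s score, 52.4% untreated and 27.7% treated, was 50.3% and 26.9% with 18S from base 3900, and 53.7% untreated with 18S from base 4100, where the treated value was the same. Without the highest-scored Rn45s site it was 61.6% and 35.5%, and over recurring sites, chosen after seeing the data, 51.6% and 30.4%. The share of the list score on Rn45s was 17.1% and 19.2% without the highest-scored site, and 20.1% and 23.9% without the mitochondrial chromosome and unplaced contigs. Under each of these settings for it the spacer share was lower in the treated list. The share of list score was higher there without the highest-scored site and without the mitochondrial chromosome and contigs, but over recurring sites its log2 ratio was -0.01. The median log2 ratio of spacer pairs was -0.97 with scores divided by the list sum and -0.90 with the sum outside Rn45s. For 18S pairs it was 0.00028 with the sum outside Rn45s, so its direction is not set. Summing overlapping sites before the ratio, also chosen after seeing the data, gave -1.53 and -0.61. A score minimum of 1000 and ignoring strand moved no count of sites by over 1.5 times. Read depth per library is unknown and limits every comparison.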
